A study of Mus musculus with 6 samples.

Results

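The levels of 10 genes whose products belong to the acute phase response of the mouse were followed across MYC-driven liver tumors of mice given the PRMT5 inhibitor GSK3326595 or vehicle. They were chosen by name from textbook knowledge: the serum amyloid A genes Saa1, Saa2, Saa3 and Saa4, the orosomucoid genes Orm1 and Orm2, and Hp, Lcn2, Crp and Serpina3n. All 10 were found among the 47643 genes of the deposited table, and all 10 passed the filter on low counts that left 17012 genes for testing. No gene of the table passed edgeR's adjusted test between the groups, and the members are described by their values in each tumor.

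Liver tumors of LAP-tTA-tetO-MYC mice of the FVB/N strain were profiled by bulk RNA sequencing. In this model the LAP promoter drives the tetracycline transactivator in hepatocytes, and the transactivator switches on the MYC transgene once doxycycline is withdrawn. The GSK3326595 group had 3 libraries from mice given 50 mg/kg/day of GSK3326595 for 2 weeks, and the vehicle group had 3 libraries from mice given vehicle for the same time. All mice of both groups carried both transgenes, had doxycycline at 100 mg/L in the drinking water until 4 weeks of age, and had MYC on for 8 weeks before treatment began. No tumor-free liver and no liver with MYC off was analysed here. GSK3326595 is a small-molecule inhibitor of PRMT5, an enzyme that adds symmetric dimethyl marks to arginines of histones and splicing proteins. The labels do not say whether the replicates came from separate animals, so the p-values measure only the spread between these samples.

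Acute phase proteins are secreted mainly by hepatocytes when cytokines, above all IL-6 and IL-1, signal infection, injury or a growing tumor. IL-6 acts through gp130, JAK kinases and STAT3, IL-1 and TNF act through NF-kB, and C/EBP factors and the glucocorticoid receptor act at many of the same promoters. The proteins take part in lipid transport, the capture of haemoglobin and iron, the binding of microbes and the restraint of proteases, and in the mouse Saa1 and Saa2 are among the most strongly induced.

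Promoter sequences were available for 8 of the 10 members in RefSeq (build GRCm38.p6), each running from 250 bases before the annotated start to 50 bases after it; Hp and Orm1 had no entry in the table used. The promoters of Saa1 and Saa2 are shown because these near-identical neighbours had the highest values relative to vehicle, and those of Lcn2 and Serpina3n because they had the lowest. Sequences read 5′ to 3′ on the strand of the gene, and capitals mark a match to the C/EBP motif TTGCNNAA in Saa1, Saa2 and Lcn2 and to the NF-kB motif GGGNNTTTC in Serpina3n, with N any base and both strands searched.
Saa1, chr7:46742931-46743230, minus strand: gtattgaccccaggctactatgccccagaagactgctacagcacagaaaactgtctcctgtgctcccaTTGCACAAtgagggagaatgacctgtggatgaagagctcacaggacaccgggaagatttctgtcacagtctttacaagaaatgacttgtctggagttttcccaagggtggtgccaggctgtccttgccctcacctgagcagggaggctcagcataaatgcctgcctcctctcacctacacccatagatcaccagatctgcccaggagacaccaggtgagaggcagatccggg
Saa2, chr7:46751583-46751882, plus strand: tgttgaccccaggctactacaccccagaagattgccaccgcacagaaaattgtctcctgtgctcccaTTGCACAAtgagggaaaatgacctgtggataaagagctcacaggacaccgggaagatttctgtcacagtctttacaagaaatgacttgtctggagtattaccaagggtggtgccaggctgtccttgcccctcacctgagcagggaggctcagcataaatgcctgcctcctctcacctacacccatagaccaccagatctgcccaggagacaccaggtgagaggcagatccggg
Lcn2, chr2:32387690-32387989, minus strand: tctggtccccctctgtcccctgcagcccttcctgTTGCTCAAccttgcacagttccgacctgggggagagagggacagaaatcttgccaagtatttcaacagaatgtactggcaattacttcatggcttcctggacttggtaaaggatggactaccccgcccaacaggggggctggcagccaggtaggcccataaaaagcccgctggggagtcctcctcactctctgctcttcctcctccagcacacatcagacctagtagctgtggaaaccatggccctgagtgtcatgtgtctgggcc
Serpina3n, chr12:104406458-104406757, plus strand: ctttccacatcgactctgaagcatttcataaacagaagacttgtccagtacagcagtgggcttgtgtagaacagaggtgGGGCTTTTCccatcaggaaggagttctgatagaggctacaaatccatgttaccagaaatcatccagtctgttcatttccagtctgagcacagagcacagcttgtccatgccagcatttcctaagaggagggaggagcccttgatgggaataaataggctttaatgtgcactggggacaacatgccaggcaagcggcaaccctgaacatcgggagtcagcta
The Saa1 and Saa2 promoters were identical at 287 of 301 aligned positions (95.3%), and both held the C/EBP match TTGCACAA, beginning 182 bases before the start in Saa1 and 183 bases before it in Saa2. The C/EBP match of Lcn2, TTGCTCAA, began 216 bases before its start, and the NF-kB match of Serpina3n, GGGCTTTTC, began 171 bases before its start. Among the 8 member promoters, 6 held the C/EBP motif (Lcn2, Orm2, Saa1, Saa2, Saa3 and Saa4), against 10.8% of all 32851 promoters of the same length. The NF-kB motif was in 1 of 8, against 4.36% of all promoters, and the STAT motif TTCNNNGAA was in 0 of 8, against 8.30%; the C/EBP letters do not overlap the other motifs in these promoters. A match describes letters in this window and is not a binding site, and the absence of a match says nothing of the factor.

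The libraries held 25814339 to 33621083 expected counts, which are reads per gene as the authors estimated them. Levels are given as CPM, counts scaled to a common library size after TMM scaling for composition, and differences as log2 of GSK3326595 over vehicle from edgeR's quasi-likelihood test, two-sided, with Benjamini-Hochberg adjustment over all 17012 genes and a threshold of 0.05. GSK3326595 replicate 2 stood apart from the other libraries. It lay at 103 on the first principal component, which held 38.1% of the variance, against -50.2 to 9.37 for the other 5 libraries, and each member's difference and each pathway list's median is also given without it. Where 3 values of a group follow each other, they belong to replicates 1, 2 and 3. As a sum, hepatocyte markers were abundant in every tumor. The 10 markers summed to 26346, 31971 and 9512 CPM in GSK3326595 tumors, against 30112, 35249 and 16477 CPM in vehicle tumors, and none was at 0. Single markers were not all abundant throughout, with Cyp2e1 from 4.05 to 1909.7 CPM and Tat from 1.48 to 312 CPM over the libraries. Vehicle replicate 2 carried more RNA of neutrophil markers than the other libraries, and 12 of these markers summed to 8.32, 17.1 and 3.72 CPM in GSK3326595 tumors, against 7.81, 268 and 3.998 CPM in vehicle tumors.

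The acute phase genes did not separate the treated tumors from the vehicle tumors: the 2 groups overlapped for all 10. The adjusted test called 0 of the 10 members and 0% of all genes, and the smallest adjusted p of a member in edgeR's test was 0.534 (Saa1). At an unadjusted p under 0.05, 1 member was higher in GSK3326595 tumors (Saa1) and 0 were lower, where 5.45% of all genes (927) were higher and 3.81% (648) were lower; with no scaling beyond total counts these become 1142 and 430, with a median over all genes 0.12 higher on the log2 scale. Without overlap between the groups there were 0 of 10 members, against 14.4% of all genes. DESeq2 called 0 of the 8 members to which it gave an adjusted p, against 1.69% of all genes (286 of 16918). The members' median log2 difference was 0.13, with 5 above and 5 below 0, against a median of 0.03 over all genes. It was -0.31 without vehicle replicate 3. In bulk tumor RNA, fewer cells of a type and less RNA per cell cannot be told apart.

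The highest values came from 2 libraries, 1 in each group. GSK3326595 replicate 2 was the highest of the 6 libraries for 7 members, all 4 Saa genes, both Orm genes and Hp, and vehicle replicate 2 was the highest for the other 3, Lcn2, Crp and Serpina3n. Over all genes, 21.96% were highest in GSK3326595 replicate 2 and 15.7% in vehicle replicate 2. The lowest library was GSK3326595 replicate 3 for 7 members and GSK3326595 replicate 1 for 3. The 10 members summed to 351, 1880.3 and 158 CPM in GSK3326595 replicates 1, 2 and 3, against 1067, 1911 and 288 CPM in vehicle replicates 1, 2 and 3. So both groups held a tumor with a high sum and a tumor with a low one, and the 2 lowest sums stood in the libraries with the least hepatocyte marker RNA; the part of hepatocyte content in the members' levels was not tested.

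**Figure D1:**
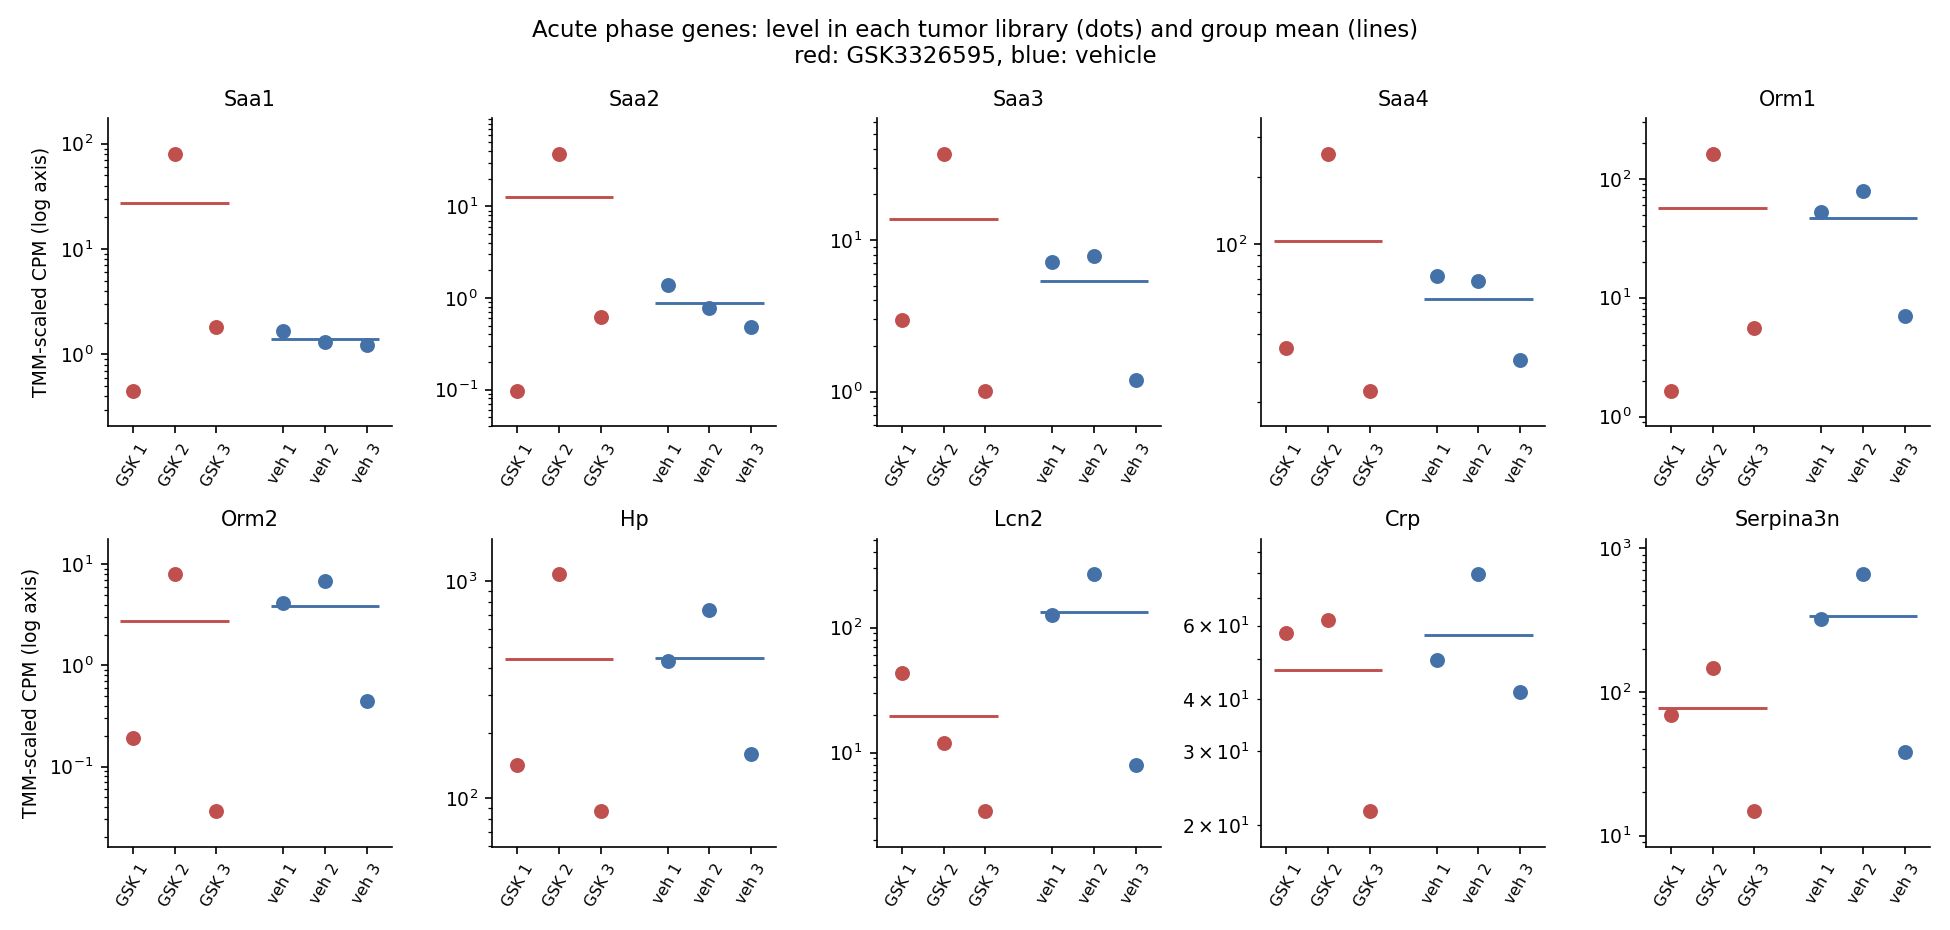
TMM-scaled CPM (log axis) of each of the 10 acute phase genes in 3 GSK3326595 and 3 vehicle tumor libraries, with dots for libraries and lines for group means. GSK3326595 replicate 2 is the highest library for 7 genes, vehicle replicate 2 for Lcn2, Crp and Serpina3n, and the groups overlap in every panel.

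Saa1 and Saa2 encode the inducible serum amyloid A proteins, apolipoproteins that travel on high-density lipoprotein. Saa1 (ENSMUSG00000074115.4, chr7:46740497-46742980, minus strand, build mm10) had 0.451, 80.5 and 1.84 CPM in GSK3326595 replicates 1, 2 and 3, against 1.66, 1.33 and 1.22 CPM in vehicle replicates 1, 2 and 3. Its 3 vehicle tumors lay close together, GSK3326595 replicate 2 stood far above all others, and GSK3326595 replicate 1 lay below every vehicle tumor. The expected counts behind these levels were 14, 2595 and 51 in GSK3326595 tumors and 52, 39 and 41 in vehicle tumors. Saa1 averaged 27.6 ± 45.8 CPM in GSK3326595 tumors and 1.402 ± 0.226 CPM in vehicle tumors (SD, n = 3 each), and GSK3326595 replicate 2 was 43.7 times the next highest library. Its log2 difference was 4.30 ± 1.77 (SE), with an edgeR p of 0.0473 and an adjusted p of 0.534. With limma-voom it was 1.59, and without GSK3326595 replicate 2 the edgeR value was -0.23 ± 0.63 (SE), so its direction rested on that tumor and its size also on the tool.

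Saa2 (ENSMUSG00000057465.4, chr7:46751790-46754313, plus strand) lies beside Saa1 and is read in the opposite direction. It had 0.0967, 37.6 and 0.613 CPM in GSK3326595 replicates 1, 2 and 3, against 1.402, 0.782 and 0.477 CPM in vehicle replicates 1, 2 and 3. The same tumor was high and the same tumor was low as for Saa1, and the remaining GSK3326595 tumor lay within the vehicle values. The expected counts were 3, 1213 and 17 in GSK3326595 tumors and 44, 23 and 16 in vehicle tumors. Its log2 difference was 3.84 ± 1.88 (SE) with an edgeR adjusted p of 0.579, and it was -1.26 ± 0.86 (SE) without GSK3326595 replicate 2. With limma-voom and all 6 libraries it was 0.81. Saa2 averaged 12.8 ± 21.5 CPM in GSK3326595 tumors and 0.887 ± 0.471 CPM in vehicle tumors (SD, n = 3 each), while the median was 0.613 CPM in GSK3326595 tumors and 0.782 CPM in vehicle tumors, so its mean and its median differed in direction.

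Reads can be hard to place between these copies. Their longest transcripts were identical at 96.7% of aligned positions, and 31.5% of the 50-base stretches of Saa1 and 29.97% of those of Saa2 occurred in another gene of the annotation, so the split between them is uncertain. Summed, Saa1 with Saa2 had 0.548, 118 and 2.45 CPM in GSK3326595 tumors, against 3.06, 2.11 and 1.701 CPM in vehicle tumors. The sum kept the single high tumor, and its log2 difference was 4.14 ± 1.80 (SE), with an edgeR p of 0.0569 and an adjusted p of 0.549.

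Saa3, which in the mouse is made chiefly outside hepatocytes, by macrophages and fat cells among others, and Saa4, the serum amyloid A gene that is expressed constitutively, lie in the same cluster. Saa3 (ENSMUSG00000040026.7, chr7:46711998-46715700, minus strand) had 2.97, 37.1 and 1.01 CPM in GSK3326595 replicates 1, 2 and 3, against 7.17, 7.79 and 1.19 CPM in vehicle replicates 1, 2 and 3. Saa4 (ENSMUSG00000040017.7, chr7:46727998-46732603, minus strand) had 34.6, 253 and 22.3 CPM in GSK3326595 replicates 1, 2 and 3, against 72.6, 68.7 and 30.6 CPM in vehicle replicates 1, 2 and 3. Both were highest in GSK3326595 replicate 2, but their other GSK3326595 tumors lay at or below the lower part of the vehicle range. GSK3326595 replicate 2 exceeded the next highest library 4.76 times for Saa3 and 3.49 times for Saa4, against 43.7 times for Saa1 and 26.8 times for Saa2. The log2 difference of Saa3 was 1.35 ± 1.31 (SE), with an edgeR adjusted p of 0.801, and was -1.39 ± 0.89 (SE) without GSK3326595 replicate 2. That of Saa4 was 0.85 ± 0.91 (SE), with an edgeR adjusted p of 0.828, and was -0.96 ± 0.43 (SE) without that tumor. The sum of 12 macrophage and Kupffer cell markers was 2199.5, 732 and 870.4 CPM in GSK3326595 tumors, against 644, 1001 and 805 CPM in vehicle tumors. Of these markers, 8 were highest in GSK3326595 replicate 1 and 0 in GSK3326595 replicate 2, where 21.1% and 21.96% of all genes were highest. Among the treated tumors alone, Clec4f, Vsig4 and Marco were highest in replicate 2. Clec4f had 0.129, 23.5 and 5.38 CPM in GSK3326595 tumors, against 1.05, 0.170 and 24.3 CPM in vehicle tumors. The part of macrophages in the Saa3 levels was not tested.

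Orosomucoids are lipocalins of plasma that carry lipids and basic drugs. Orm1 (ENSMUSG00000039196.2, chr4:63344560-63348163, plus strand) had 1.64, 163 and 5.59 CPM in GSK3326595 replicates 1, 2 and 3, against 52.8, 79.4 and 6.95 CPM in vehicle replicates 1, 2 and 3. Each group held both high and low tumors: vehicle replicates 1 and 2 and GSK3326595 replicate 2 were high, and the remaining 3 tumors were low. Its vehicle tumors alone spanned 11.4 times. Orm1 averaged 56.6 ± 91.8 CPM in GSK3326595 tumors and 46.4 ± 36.6 CPM in vehicle tumors (SD, n = 3 each), and its log2 difference was 0.29 ± 1.57 (SE) with an edgeR adjusted p of 0.975. Without GSK3326595 replicate 2 it was -3.62 ± 1.16 (SE), with an unadjusted p of 0.0213.

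Orm2 (ENSMUSG00000061540.3, chr4:63362449-63365878, plus strand) had 0.193, 8.000 and 0.0361 CPM in GSK3326595 replicates 1, 2 and 3, against 4.17, 6.91 and 0.448 CPM in vehicle replicates 1, 2 and 3. The same 3 tumors were high as for Orm1. The expected counts were 6, 258 and 1 in GSK3326595 tumors and 131, 203 and 15 in vehicle tumors, so the 2 low GSK3326595 tumors rested on 6 counts and 1 count. Its log2 difference was -0.48 ± 1.63 (SE), with an edgeR adjusted p of 0.962, and was -4.95 ± 1.41 (SE) without GSK3326595 replicate 2 (unadjusted p 0.0133). Orm1 and Orm2 were identical at 91.0% of aligned transcript positions and shared 20.4% and 22.7% of their 50-base stretches with other genes. The sum of Orm1, Orm2 and Orm3 had 1.84, 171 and 5.63 CPM in GSK3326595 tumors, against 57.3, 86.7 and 7.55 CPM in vehicle tumors. The summed log2 difference was 0.24 ± 1.57 (SE), positive where that of Orm2 alone was negative, with an edgeR adjusted p of 0.979.

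Haptoglobin binds free haemoglobin and hands it to CD163 for clearance. Hp (ENSMUSG00000031722.9, chr8:109575128-109579172, minus strand) had 141, 1080.5 and 86.9 CPM in GSK3326595 replicates 1, 2 and 3, against 431, 739 and 159.7 CPM in vehicle replicates 1, 2 and 3. GSK3326595 replicate 2 was the highest and GSK3326595 replicate 3 the lowest of the 6, and all 3 vehicle tumors lay between those 2 treated tumors. Hp averaged 436 ± 559 CPM in GSK3326595 tumors and 443 ± 289.6 CPM in vehicle tumors (SD, n = 3 each), and its log2 difference of -0.02 ± 1.001 (SE) had an edgeR adjusted p of 0.998. Without GSK3326595 replicate 2 the difference was -1.92 ± 0.66 (SE), with an unadjusted p of 0.0279. Hp shared no 50-base stretch with another gene.

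Lipocalin 2 withholds iron from bacteria by binding their siderophores, and is made by hepatocytes in the acute phase and stored by neutrophils. Lcn2 (ENSMUSG00000026822.14, chr2:32384633-32388252, minus strand) had 43.3, 11.9 and 3.39 CPM in GSK3326595 replicates 1, 2 and 3, against 125, 268 and 8.03 CPM in vehicle replicates 1, 2 and 3. Vehicle replicates 1 and 2 were above all treated tumors, but vehicle replicate 3 lay between treated tumors. Lcn2 averaged 19.5 ± 21.03 CPM in GSK3326595 tumors and 134 ± 130.2 CPM in vehicle tumors (SD, n = 3 each), and the vehicle tumors alone spanned 33.4 times. Its log2 difference was -2.77 ± 1.31 (SE), with an edgeR p of 0.0738 and an adjusted p of 0.566. It was -2.49 ± 1.59 (SE) without GSK3326595 replicate 2 and -1.77 without vehicle replicate 2.

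The library with the most Lcn2 was also the one with the most neutrophil marker RNA. S100a8, a calcium-binding protein of neutrophils, had 0.193, 2.02 and 0 CPM in GSK3326595 tumors, against 1.75, 55.7 and 0.149 CPM in vehicle tumors, and its partner S100a9 had 0.516, 2.73 and 0.0361 CPM in GSK3326595 tumors, against 2.55, 85.7 and 0.716 CPM in vehicle tumors. Of the 12 neutrophil markers 6 were tested, with a median log2 difference of -3.03, which was -0.03 without vehicle replicate 2; none of the 12 was at 0 in all libraries. The marker sum of vehicle replicate 1, second in Lcn2, was 7.81 CPM, and that of GSK3326595 replicate 1 was 8.32 CPM. Single markers differed in direction between these libraries. Csf3r had 5.74 CPM in GSK3326595 replicate 1, against 1.27 CPM in vehicle replicate 1, while S100a8 and S100a9 were higher in vehicle replicate 1. The part of neutrophils in the Lcn2 levels of vehicle replicates 1 and 2 was not tested.

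C-reactive protein is a pentraxin that binds phosphocholine on microbes and dying cells, and in the mouse, unlike in humans, it responds only weakly in the acute phase. Crp (ENSMUSG00000037942.5, chr1:172698055-172833031, plus strand) had 57.6, 61.8 and 21.6 CPM in GSK3326595 replicates 1, 2 and 3, against 49.6, 79.7 and 41.6 CPM in vehicle replicates 1, 2 and 3. It varied least of the 10 members, with 3.69 times between its highest and lowest library, and the groups overlapped broadly. Crp averaged 46.99 ± 22.1 CPM in GSK3326595 tumors and 56.95 ± 20.1 CPM in vehicle tumors (SD, n = 3 each), and its log2 difference was -0.28 ± 0.44 (SE), with an edgeR adjusted p of 0.902. Without GSK3326595 replicate 2 it was -0.49 ± 0.48 (SE).

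Serpina3n is a secreted serine protease inhibitor related to human antichymotrypsin. Serpina3n (ENSMUSG00000021091.8, chr12:104406729-104414329, plus strand) had 68.9, 147 and 14.8 CPM in GSK3326595 replicates 1, 2 and 3, against 321, 659.6 and 38.1 CPM in vehicle replicates 1, 2 and 3. The order of the libraries resembled that of Lcn2 in having vehicle replicates 2 and 1 on top and replicate 3 lowest in each group. Serpina3n averaged 76.9 ± 66.6 CPM in GSK3326595 tumors and 339 ± 311 CPM in vehicle tumors (SD, n = 3 each). Its log2 difference was -2.14 ± 1.11 (SE), with an edgeR p of 0.0965 and an adjusted p of 0.601. It was -2.99 ± 1.28 (SE) without GSK3326595 replicate 2, with an unadjusted p of 0.0593, and -1.23 without vehicle replicate 2.

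The Serpina3 cluster, in which Serpina3n arose by repeated duplication in rodents, did not share its direction over all 6 libraries. Of its 8 tested genes (11 listed), 7 had a positive log2 difference and Serpina3n alone a negative one, with a median of 1.29. Over all 17012 genes tested, 9041 were positive. Serpina3k, a liver-expressed paralog, had 12.1, 2046 and 143 CPM in GSK3326595 tumors, against 81.9, 145 and 88.9 CPM in vehicle tumors, so that GSK3326595 replicate 2 was far above the rest, as for Saa1. Its log2 difference was 2.80 ± 1.52 (SE), with an edgeR adjusted p of 0.622. Serpina3m, outside the rule for named genes, had 2.16, 203 and 15.5 CPM in GSK3326595 tumors, against 33.2, 76.2 and 9.16 CPM in vehicle tumors. It too was highest in GSK3326595 replicate 2, and its other treated tumors lay below its vehicle mean of 39.5 CPM. At an unadjusted p under 0.05, 2 cluster genes were higher in GSK3326595 tumors, Serpina3g and Serpina3c, and 0 were lower. Of all genes, 5.45% were higher and 3.81% lower. Serpina3g, known from activated lymphocytes and macrophages, had 8.77, 9.71 and 2.71 CPM in GSK3326595 tumors, against 0.892, 1.53 and 2.89 CPM in vehicle tumors, and edgeR gave a log2 difference of 1.99 ± 0.62 (SE) and an adjusted p of 0.504. Serpina3c had 1.06, 9.98 and 0.685 CPM in GSK3326595 tumors, against 0.223, 0.306 and 0.597 CPM in vehicle tumors, with 3.36 ± 1.13 (SE) as log2 difference (edgeR adjusted p 0.522; DESeq2 adjusted p 0.04298). DESeq2 called 1.69% of all genes, and the Serpina3c levels were low outside GSK3326595 replicate 2. Serpina3f had 2.06, 2.36 and 0.541 CPM in GSK3326595 tumors, against 0.382, 0.204 and 0.955 CPM in vehicle tumors. Left without GSK3326595 replicate 2, the cluster had a median of 0.84, and the median was 2.11 without GSK3326595 replicate 3 and 2.51 without vehicle replicate 3. Serpina3n shared 6.898% of its 50-base stretches with other genes. The whole cluster summed to 100.2, 2432 and 180.3 CPM in GSK3326595 tumors, against 439, 885 and 144 CPM in vehicle tumors, with a log2 difference of 0.89 ± 1.23 (SE) and an edgeR adjusted p of 0.8802.

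**Figure D2:**
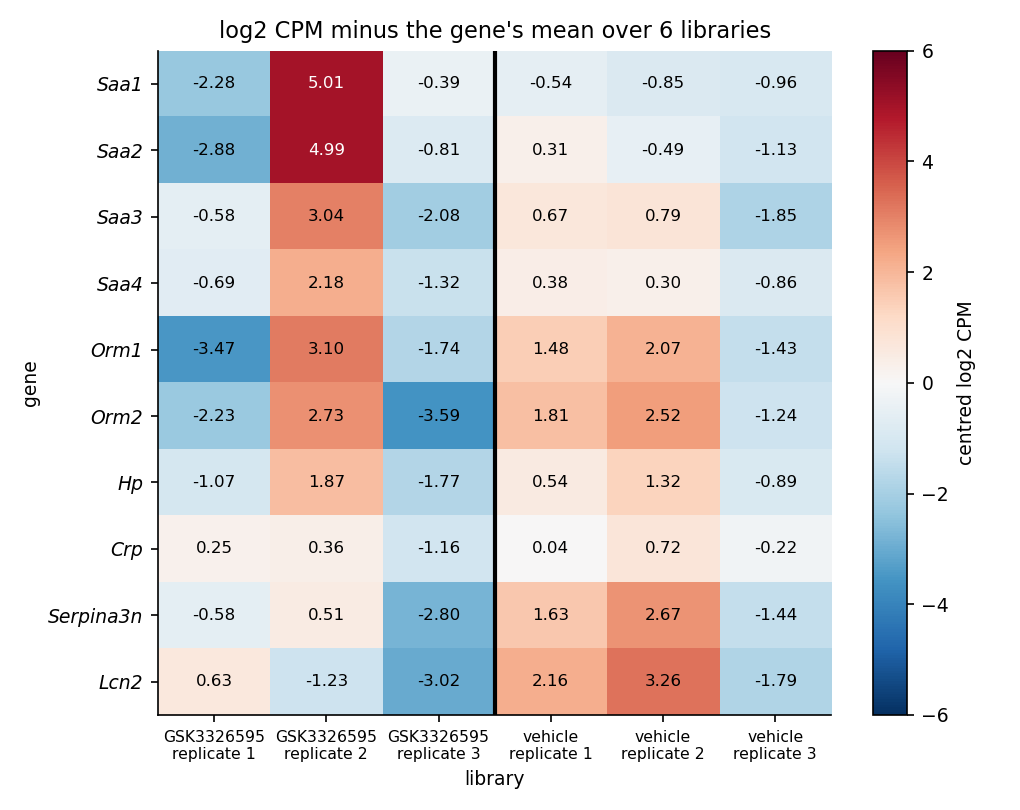
Centred log2 CPM (each gene's log2 CPM minus its mean over 6 libraries) of the 10 members, genes down the page and libraries across, GSK3326595 left of the black line and vehicle right of it. Saa1 and Saa2 stand out in GSK3326595 replicate 2, at 5.01 and 4.99, while Orm1, Orm2 and Hp are high there and in vehicle replicates 1 and 2, and Lcn2 and Serpina3n are high in those vehicle replicates.

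Leaving out GSK3326595 replicate 2 left 2 treated tumors against 3 vehicle tumors and placed every member lower in GSK3326595. All 10 members then had a log2 difference below 0, against 43.5% of all genes, and their median was -1.66, against 0.06 over all genes. GSK3326595 replicate 2 was the highest library for 7 members, so leaving it out lowers their treated values by construction. The lowest library of every member was also among the 2 treated tumors left. The shares over all genes carry no such selection, so setting the members beside them is no test of a fall. At an unadjusted p under 0.05, 3 members were lower in GSK3326595 tumors (Orm1, Orm2 and Hp), where 4.46% of all genes were. The same 3 had no overlap between the groups, against 25.5% of all genes, a comparison chosen after seeing the data. The adjusted test in edgeR still called 0 members and 0 genes, with a smallest member adjusted p of 0.459. Leaving out vehicle replicate 2 together with GSK3326595 replicate 2, also chosen after seeing the data, gave Orm1 -2.98 and Lcn2 -1.48. When libraries were left out one at a time, the direction of Saa1, Saa2, Saa3 and Saa4 turned only without GSK3326595 replicate 2. That of Orm1 turned without GSK3326595 replicate 2 and also without vehicle replicate 3, where it was -0.21. Orm2 and Hp, below 0 with all 6 libraries, were above 0 without GSK3326595 replicate 1, GSK3326595 replicate 3 or vehicle replicate 2, reaching 0.25 for Orm2 and 0.56 for Hp, and Crp was above 0 without GSK3326595 replicate 3 or vehicle replicate 2. Lcn2 and Serpina3n were below 0 whichever library was left out.

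**Figure D3:**
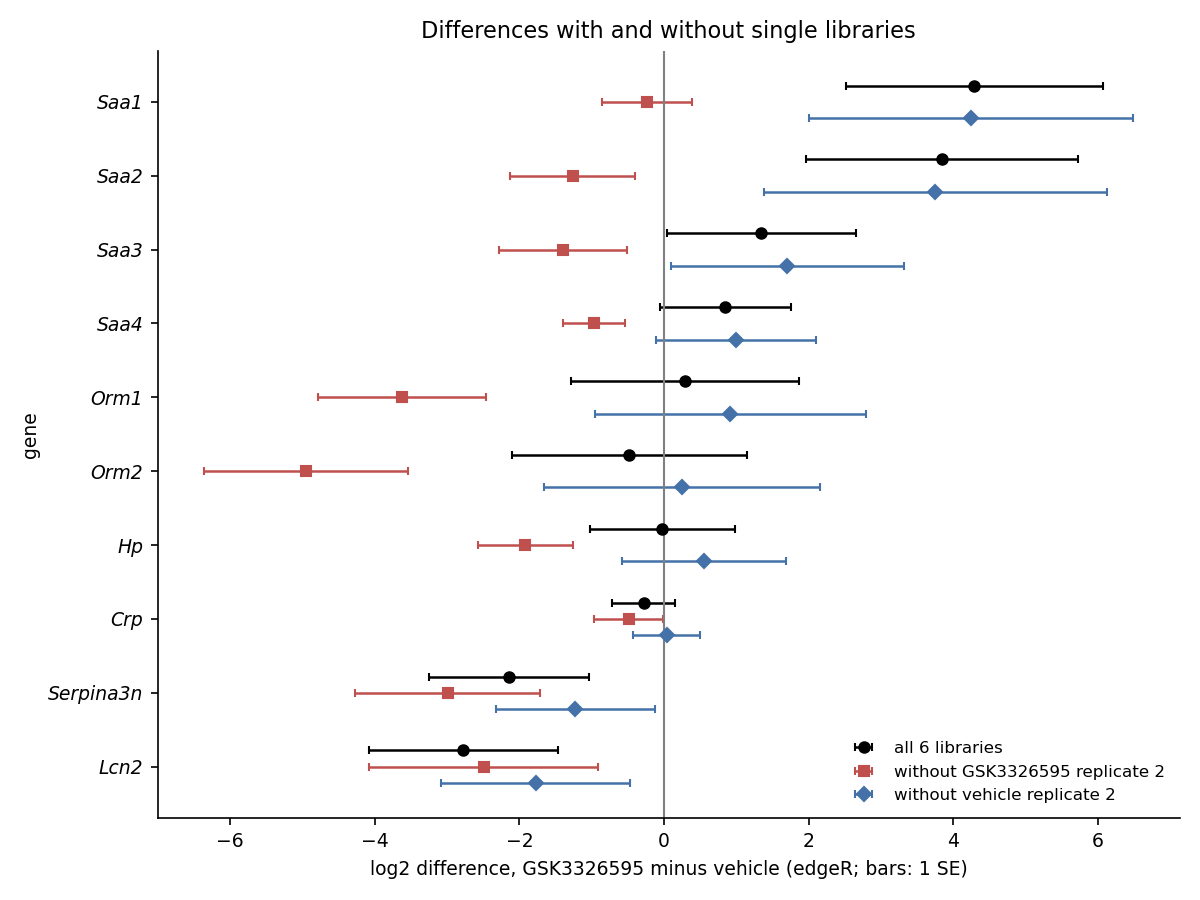
log2 differences (GSK3326595 minus vehicle, edgeR, bars 1 SE) of the 10 members from all 6 libraries (black circles), without GSK3326595 replicate 2 (red squares) and without vehicle replicate 2 (blue diamonds). Saa1 moves to -0.23 when GSK3326595 replicate 2 is left out, where it is 4.30 with all 6 libraries, and all 10 red squares lie below 0.

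The members varied more between replicates than most genes did. By edgeR's biological coefficient of variation, 9 of the 10 lay above the 95th percentile of all genes, between 95.4 for Saa4 and 99.7 for Orm2, and Crp lay at 69.5. Within the vehicle tumors alone the ratio of highest to lowest library was 1.35 for Saa1, 1.92 for Crp, 4.63 for Hp, 17.3 for Serpina3n and 33.4 for Lcn2. Saa1 was thus the steadiest member among vehicle tumors and, of the 8 members given a ratio over the 6 libraries, had the widest, 178 times; Saa2 and Orm2, with 3 counts or fewer in a library, are given no such ratio.

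Levels were compared between members per kilobase of exon. Over the 6 libraries Hp had the highest level, 274 ± 248 CPM per kb (mean ± SD, n = 6), followed by Serpina3n at 101 ± 119.8, Orm1 at 66.4 ± 80.99, Saa4 at 38.4 ± 41.6 and Lcn2 at 29.2 ± 39.8 CPM per kb. Crp had 15.1 ± 5.71 CPM per kb, and below it stood Saa1 at 5.85 ± 13.04, Orm2 at 4.25 ± 4.63, Saa3 at 3.66 ± 5.302 and Saa2 at 2.71 ± 5.99 CPM per kb. Neighbours in this order differed by less than their spread over libraries, and the inducible Saa1 and Saa2 stood in the lower part of the order, below the constitutive Saa4. The place of Saa1 above Orm2 and Saa3 came from GSK3326595 replicate 2, where it had 32.5 CPM per kb, against 0.182 to 0.742 in the other 5 libraries. In vehicle replicates 1 and 2 Saa1 had 0.669 and 0.535 CPM per kb, below Orm2 at 5.39 and 8.91 and Saa3 at 2.75 and 2.99 CPM per kb.

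The genes outside the members whose profiles were nearest to those of Saa2 and Lcn2 were found by the root mean square distance of centred log2 CPM over the 6 libraries, among 9275 genes of at least 10 CPM on average. Nearest to Saa2 were Aldh1a7 at 0.762, Acsm5 at 0.789, Serpina3k at 0.806, Apon at 0.815 and Slc27a5 at 0.901, while the member Saa1 lay at 0.484. Aldh1a7, an aldehyde dehydrogenase, had 3.35, 338 and 9.42 CPM in GSK3326595 tumors, against 15.1, 3.197 and 3.998 CPM in vehicle tumors, and Slc27a5, a bile acid and fatty acid ligase of the liver, had 5.54, 219 and 13.1 CPM in GSK3326595 tumors, against 25.4, 30.8 and 15.4 CPM in vehicle tumors. These profiles have the same single high tumor. Nearest to Lcn2 were 8430408G22Rik at 0.766, RP23-366O14.6 at 0.881, Igfbp1 at 0.8902 and Gpx3 at 0.904, while the member Serpina3n lay at 0.939. Igfbp1, an insulin-like growth factor binding protein secreted by hepatocytes, had 275, 23.5 and 38.5 CPM in GSK3326595 tumors, against 872, 1618 and 111 CPM in vehicle tumors, so both vehicle replicates 1 and 2 were above all treated tumors and vehicle replicate 3 was not.

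The rest of the acute phase pathway was read from lists of the ligands, receptors, transducers, inhibitors and other plasma proteins. No gene of any list passed edgeR's adjusted test. At an unadjusted p under 0.05, 5.45% of all genes were higher in GSK3326595 tumors and 3.81% were lower, and the lists' counts stand beside these shares. Among 12 inducing cytokines 7 were tested, with a median log2 difference of 0.78 and 0 at an unadjusted p under 0.05 in either direction. All 7 were highest in GSK3326595 replicate 1, where 21.1% of all genes were highest, and without that library the median was 0.33. Tnf had 2.26, 0.589 and 0.397 CPM in GSK3326595 tumors, against 0.414, 0.272 and 0.448 CPM in vehicle tumors, and Il1a had 11.7, 2.79 and 5.63 CPM in GSK3326595 tumors, against 2.99, 3.54 and 3.61 CPM in vehicle tumors. Il18 had 5.58, 4.93 and 2.67 CPM in GSK3326595 tumors, against 2.26, 2.25 and 3.16 CPM in vehicle tumors, with 0.78 ± 0.36 (SE) as log2 difference (edgeR adjusted p 0.559), and Osm had 0.903, 0.3101 and 0.397 CPM in GSK3326595 tumors, against 0.287, 0.408 and 0.0597 CPM in vehicle tumors. GSK3326595 replicate 1 was the lowest library for Saa1, Saa2 and Orm1. For Lcn2, at 43.3 CPM, it was the highest treated tumor, and for Crp, at 57.6 CPM, it lay above vehicle replicates 1 and 3. The part of these cytokines in the members' levels was not tested. Il6, the main inducer, did not pass the filter, at 0.0322, 0.09302 and 0.0361 CPM in GSK3326595 tumors, against 0, 0.03402 and 0.0597 CPM in vehicle tumors, and Il22 was at 0 in all 6 libraries. GSK3326595 replicate 1 also had the highest summed macrophage markers given above and the highest sum of 8 T and NK cell markers, 13.2, 8.93 and 4.08 CPM in GSK3326595 tumors, against 1.56, 2.65 and 1.67 CPM in vehicle tumors; their part in the cytokine values was not tested.

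The 12 cytokine receptors and adaptors had a median log2 difference of 0.19, with 0 higher and 1 lower at an unadjusted p under 0.05. That gene was Il22ra1, the hepatocyte receptor chain for IL-22, with 17.3, 7.81 and 13.9 CPM in GSK3326595 tumors, against 24.2, 24.4 and 20.5 CPM in vehicle tumors. Every treated tumor lay below every vehicle tumor, and its log2 difference was -0.82 ± 0.31 (SE) (edgeR p 0.0354, adjusted p 0.524). It was the only 1 of the 12 without overlap between the groups, against 14.4% of all genes. Il6st, which encodes gp130, had 133, 241 and 77.1 CPM in GSK3326595 tumors, against 85.5, 125 and 104 CPM in vehicle tumors, and it was highest in GSK3326595 replicate 2. Myd88, the adaptor of IL-1 receptors, had 5.64, 7.29 and 3.28 CPM in GSK3326595 tumors, against 3.22, 4.898 and 3.82 CPM in vehicle tumors, and Il1r1 had 11.6, 33.4 and 7.94 CPM in GSK3326595 tumors, against 30.4, 48.4 and 10.03 CPM in vehicle tumors. Il1r1, itself inducible in hepatocytes, was high in GSK3326595 replicate 2 and vehicle replicates 1 and 2, the same tumors as Orm1.

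Among 17 kinases and transcription factors the median log2 difference was -0.14 and 0 were past an unadjusted p of 0.05 in either direction. Cebpd, the C/EBP factor induced in the acute phase, had 1.29, 1.58 and 0.794 CPM in GSK3326595 tumors, against 2.26, 5.41 and 1.25 CPM in vehicle tumors, with -1.28 ± 0.59 (SE) as log2 difference (edgeR adjusted p 0.558). Cebpb had 5.996, 15.9 and 7.396 CPM in GSK3326595 tumors, against 17.2, 18.1 and 10.1 CPM in vehicle tumors, with -0.63 ± 0.44 (SE) as log2 difference (edgeR adjusted p 0.699). For both, vehicle replicate 2 was highest and the groups overlapped. Nfkb1, a subunit of NF-kB, had 60.5, 34.4 and 37.6 CPM in GSK3326595 tumors, against 21.8, 32.9 and 31.8 CPM in vehicle tumors, where every treated tumor lay above every vehicle tumor by a narrow margin, with 0.61 ± 0.28 (SE) as log2 difference (edgeR adjusted p 0.559). Nfkb1 was the only 1 of the 17 without overlap between the groups, against 14.4% of all genes. Jak1 had 179, 115 and 119 CPM in GSK3326595 tumors, against 94.1, 111 and 120.4 CPM in vehicle tumors.

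Of 13 feedback inhibitors 12 were tested, with a median log2 difference of -0.15; 0 were higher and 2 were lower at an unadjusted p under 0.05, Cish and Zfp36. Cish, a suppressor of cytokine signaling induced by STAT5, had 7.87, 5.36 and 2.56 CPM in GSK3326595 tumors, against 18.3, 20.5 and 10.7 CPM in vehicle tumors. All treated tumors were below all vehicle tumors, and its log2 difference was -1.65 ± 0.46 (SE) (edgeR p 0.01004, adjusted p 0.485). DESeq2, which called 1.69% of all genes, gave Cish an adjusted p of 0.0445. Cish was the only 1 of the 12 without overlap between the groups, against 14.4% of all genes. Zfp36, which speeds the decay of cytokine mRNAs, had 36.5, 25.1 and 13.6 CPM in GSK3326595 tumors, against 64.5, 81.6 and 26.6 CPM in vehicle tumors, with -1.20 ± 0.50 (SE) as log2 difference (edgeR adjusted p 0.539). Nfkbia, the NF-kB inhibitor, had 36.2, 21.02 and 19.5 CPM in GSK3326595 tumors, against 40.3, 41.1 and 29.98 CPM in vehicle tumors, and Ptpn6, a phosphatase of blood cells, had 40.6, 22.3 and 15.9 CPM in GSK3326595 tumors, against 15.3, 17.1 and 15.3 CPM in vehicle tumors. Socs3, the inhibitor that STAT3 itself induces, had 12.9, 3.69 and 3.57 CPM in GSK3326595 tumors, against 7.11, 10.6 and 3.25 CPM in vehicle tumors, and the groups overlapped; it falls outside the rule for named genes and was chosen after its values were seen.

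The 10 genes of the glucocorticoid response had a median log2 difference of -0.38, with 0 higher and 1 lower at an unadjusted p under 0.05, the phosphatase gene Dusp1. Dusp1 had 15.7, 14.6 and 6.28 CPM in GSK3326595 tumors, against 27.1, 43.1 and 14.4 CPM in vehicle tumors, with -1.21 ± 0.50 (SE) as log2 difference (edgeR adjusted p 0.534). Tat, the tyrosine aminotransferase of hepatocytes, had 1.48, 312 and 28.1 CPM in GSK3326595 tumors, against 11.7, 19.9 and 16.4 CPM in vehicle tumors, so it was high in GSK3326595 replicate 2 alone. Per1, a clock gene, had 17.2, 36.4 and 16.96 CPM in GSK3326595 tumors, against 39.8, 47.3 and 25.4 CPM in vehicle tumors. The list thus held genes that followed vehicle replicates 1 and 2, such as Igfbp1, and a gene that followed GSK3326595 replicate 2.

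Of the 28 other positive acute phase proteins 26 were tested, with a median log2 difference of -0.61, 8 above and 18 below 0. Their highest library was vehicle replicate 2 for 15 (57.7%) and GSK3326595 replicate 2 for 7 (26.9%), and 0 were higher at an unadjusted p under 0.05. The shares of all genes highest in these libraries were 15.7% and 21.96%. Lbp, which hands lipopolysaccharide to CD14, had 92.4, 36.8 and 24.1 CPM in GSK3326595 tumors, against 149, 223 and 45.5 CPM in vehicle tumors, and Cd14 had 3.77, 1.86 and 1.23 CPM in GSK3326595 tumors, against 4.72, 15.95 and 2.12 CPM in vehicle tumors. Both were highest in vehicle replicate 2, like Lcn2 and Serpina3n. Steap4, a metalloreductase, had 30.8, 71.1 and 16.02 CPM in GSK3326595 tumors, against 9.53, 18.2 and 18.9 CPM in vehicle tumors, with 1.34 ± 0.56 (SE) as log2 difference (edgeR adjusted p 0.539). The 13 negative acute phase proteins, which livers make less of in the acute phase, had a median log2 difference of -0.27, with 1 higher, Serpina6, and 0 lower at an unadjusted p under 0.05. Serpina6, the corticosteroid-binding globulin, had 319.6, 414 and 114 CPM in GSK3326595 tumors, against 68.6, 39.5 and 139 CPM in vehicle tumors and a log2 difference of 1.78 ± 0.61 (SE) (edgeR p 0.0232, adjusted p 0.522). Ttr, the thyroxine carrier, had 2448, 1642 and 898 CPM in GSK3326595 tumors, against 1049.5, 1039 and 957 CPM in vehicle tumors, Trf, the iron carrier transferrin, had 12673, 3961 and 3841 CPM in GSK3326595 tumors, against 17295, 22094 and 9349 CPM in vehicle tumors, and Rbp4, the retinol carrier, had 416, 516 and 161 CPM in GSK3326595 tumors, against 772, 815 and 418 CPM in vehicle tumors. Both lists held log2 differences on both sides of 0.

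Among 15 receptors and partners of the member proteins 13 were tested, with a median log2 difference of -0.28, and at an unadjusted p under 0.05 there were 0 higher and 2 lower, Fpr1 and Scarb1. Fpr1, a formyl peptide receptor of neutrophils and macrophages, had 0.774, 0.713 and 0.541 CPM in GSK3326595 tumors, against 1.498, 2.52 and 1.88 CPM in vehicle tumors. All treated tumors were below all vehicle tumors at this low level, and its log2 difference was -1.53 ± 0.35 (SE) (edgeR p 0.00347, adjusted p 0.455). DESeq2, which called 1.69% of all genes, gave Fpr1 an adjusted p of 0.0314. Fpr1 was the only 1 of the 13 without overlap between the groups, against 14.4% of all genes. Scarb1, the receptor for high-density lipoprotein, had 129.9, 113 and 73.2 CPM in GSK3326595 tumors, against 212, 264 and 112 CPM in vehicle tumors, with -0.90 ± 0.36 (SE) as log2 difference (edgeR adjusted p 0.533). Tlr4, the lipopolysaccharide receptor, had 40.4, 14.7 and 13.8 CPM in GSK3326595 tumors, against 8.25, 13.8 and 11.6 CPM in vehicle tumors, and Lrp2, a receptor that takes up lipocalin 2 in the kidney, had 20.95, 0.837 and 8.66 CPM in GSK3326595 tumors, against 46.5, 18.5 and 67.1 CPM in vehicle tumors.

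**Figure D4:**
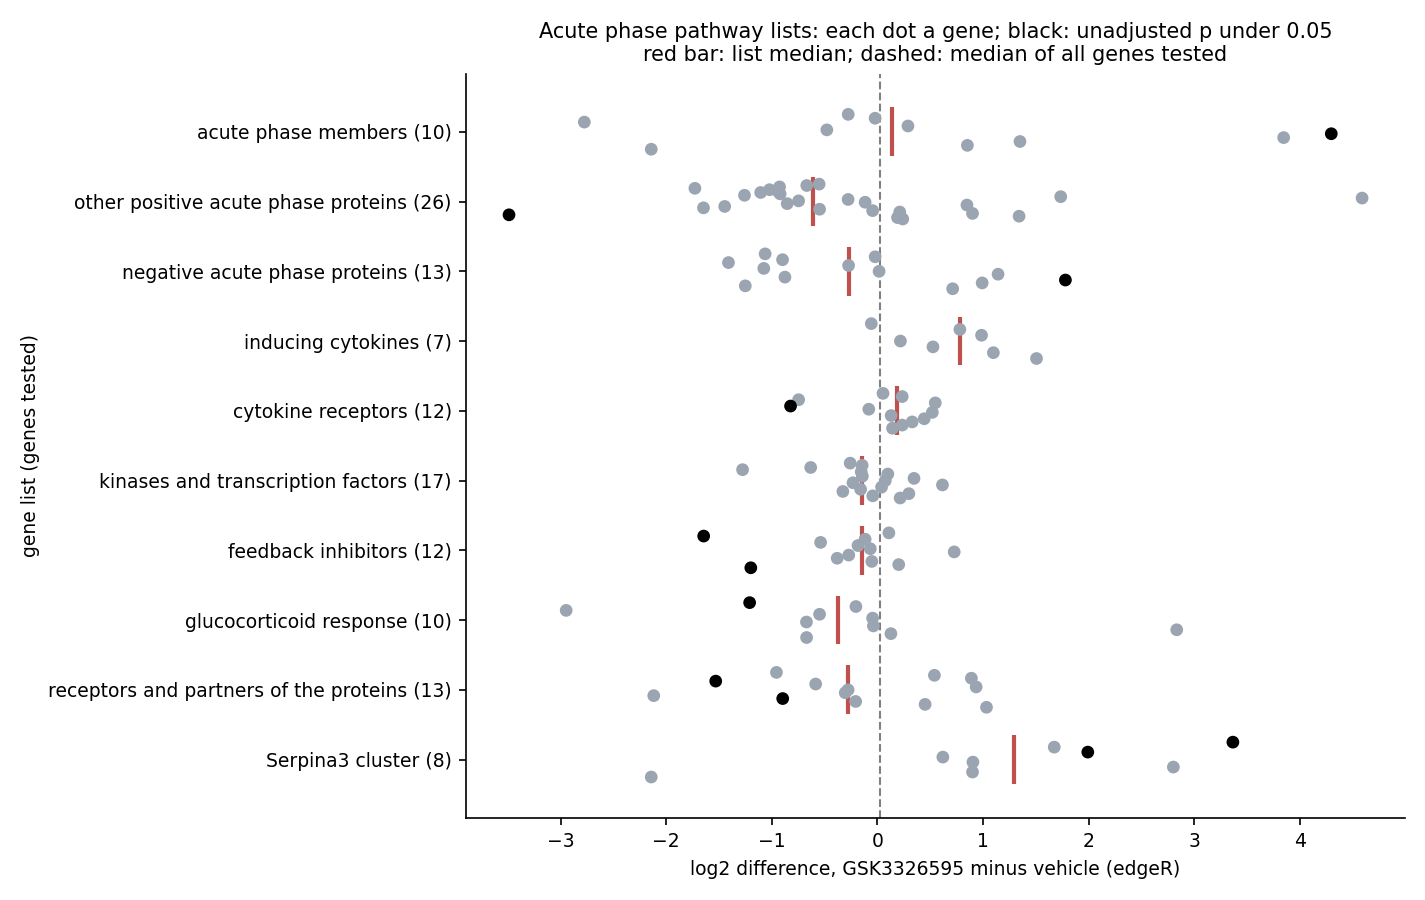
log2 differences (GSK3326595 minus vehicle, edgeR) of the tested genes of each list, 1 dot a gene, with unadjusted p under 0.05 in black, list medians as red bars and the median of all genes, 0.03, as a dashed line. The members span -2.77 to 4.30 around a median of 0.13, and the positive acute phase proteins outside the members have a median of -0.61.

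Without GSK3326595 replicate 2 the list medians were 0.89 for the cytokines, 0.07 for their receptors, 0.11 for the kinases and transcription factors, -0.08 for the feedback inhibitors, -0.56 for the glucocorticoid response, -0.83 for the other positive acute phase proteins, -0.44 for the negative ones and -0.37 for the receptors and partners. Among these 8 medians, that of the kinases and transcription factors changed sign. Leaving out other single libraries also turned medians. Without GSK3326595 replicate 3 they were 0.05 for the negative acute phase proteins, 0.03 for the feedback inhibitors and 0.13 for the kinases and transcription factors. Without GSK3326595 replicate 1 the receptors had -0.06. Without vehicle replicate 2 the receptors and partners had 0.08 and the kinases and transcription factors 0.01. The sign of these small medians thus depended on the libraries included.

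**Figure D5:**
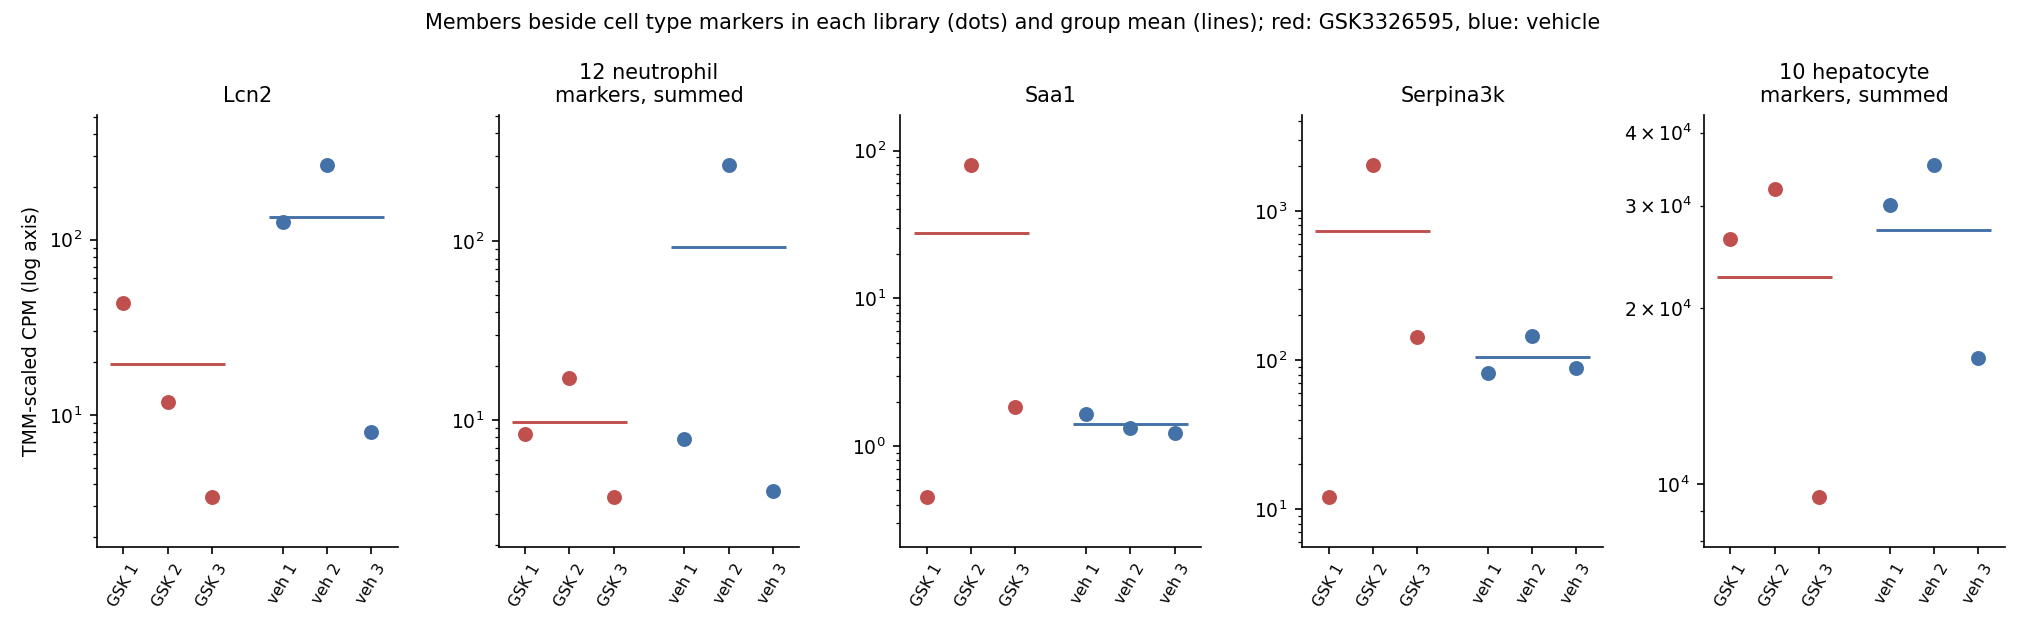
TMM-scaled CPM (log axes) of Lcn2, 12 summed neutrophil markers, Saa1, Serpina3k and 10 summed hepatocyte markers in each library, dots for libraries and lines for group means. Lcn2 and the neutrophil sum share their highest library, vehicle replicate 2, at 268 CPM each, and Saa1 and Serpina3k share theirs, GSK3326595 replicate 2, where the hepatocyte sum is close to that of vehicle replicate 1.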

How the data were processed

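Libraries were made from total RNA of mouse liver with a stranded kit, per the labels' protocols. Expected counts per gene, without scaling for library size, are the unit of the deposited table. The submitters' processing notes name cutadapt, STAR, Picard, RSEM and build mm10; versions, annotation release and the strand setting of the counting are not given in the sources used here. Fractional values made up 12.3% of the deposited table (tolerance 0), and all were rounded. Members were matched by symbol.

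Genes passing filterByExpr (minimum count 10) were scaled by TMM and tested with edgeR 4.0.16 in R 4.3.3, without covariates. Each SE was obtained by dividing the size of the log2 difference by the root of its F statistic. For log2 CPM the prior count was 2. Alternatives were limma-voom (limma 3.58.1) and DESeq2 1.42.0, which gave no adjusted p to 2 members, Saa1 and Saa2. The tests were also run on simulated data, with outcomes not given here. Each planted change was the same in all treated libraries, so a single high tumor was not simulated. With 3 against 3, an exact permutation test of a single gene cannot give a two-sided p below 0.1, so none is given.

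Coordinates (1-based), exon lengths and transcripts came from a GENCODE annotation of the same build, matched by Ensembl ID without its version (47224 of 47643 genes, 419 unmatched; 5 of 10 members carried another version). No protein table was used, so identity is between transcripts and promoters. The members and lists were chosen with earlier results of these data known. Named beside the members were up to 4 genes of smallest p per list and any gene counted among 5 or fewer. Of the lists' genes, Saa5 was not analysed here, and the values of 1 other gene are not reported here.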

Additional observations from a re-analysis of the deposited data

How the results depend on the processing

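The adjusted test called 0 members under each of these alternatives: other or no scaling, no or another filter on low counts, another threshold, leaving out mitochondrial and rRNA genes, limma-voom, DESeq2 (for 8 members), the replicate block and leaving out libraries. It called 0 genes in all of these except DESeq2, which called 286. For summed paralogs only the differences of the sums were computed. At an unadjusted p under 0.05, where edgeR gave 1 member (Saa1), there were 3 with no filter (Lcn2, Saa1, Saa2), 2 with DESeq2 (Lcn2, Serpina3n) and 0 with limma-voom. Leaving out a library gave 0 to 3: 0 without vehicle replicate 1 or 2, and 3 without GSK3326595 replicate 1 or 2. Without both replicates 2, chosen after seeing the data, there were 2 (Orm1, Orm2), and the members without overlap numbered 3 without GSK3326595 replicate 2 and 0 with it.

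Log2 differences kept their direction and side of the adjusted threshold in 139 of the recomputed values, though not their size, and turned direction in 25. The 139 include Saa1 and Saa2 with DESeq2, which kept their direction but had no adjusted p. Saa1 was 1.59 with limma-voom and 1.27 with the replicate block, Saa2 0.81 with either, Saa3 0.32 and 0.23, and Saa4 0.13 and 0.08. Orm1 was -1.36 with limma-voom, and Hp was 0.062 without scaling and 0.013 with a filter of 1 CPM in 3 libraries, which Saa2 did not pass. The paralog sum that holds Orm2 was 0.24, and that of the whole Serpina3 cluster, which holds Serpina3n, was 0.89. Both are counted among the 25 turns, though they are not values of Orm2 or Serpina3n alone. In GSK3326595 replicate 2 Serpina3k had 2046 of the cluster's 2432 CPM. Without both replicates 2, Saa1 was -0.27, Saa2 -1.34, Saa3 -1.02, Saa4 -0.81 and Orm1 -2.98. Leaving out a library in turn gave -0.23 to 4.87 for Saa1, -1.26 to 4.42 for Saa2, -1.39 to 1.91 for Saa3, -0.96 to 1.34 for Saa4, -3.62 to 0.92 for Orm1, -4.95 to 0.25 for Orm2, -1.92 to 0.56 for Hp, -4.13 to -1.77 for Lcn2, -0.49 to 0.084 for Crp and -2.99 to -1.23 for Serpina3n. The cause was not tested.

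The replicate numbers were not taken to pair the tumors: deviations of same-numbered libraries correlated at -0.0728 (1), 0.0718 (2) and 0.323 (3). With the replicate block, 2 members passed an unadjusted p of 0.05 (Lcn2 and Serpina3n), 0 genes were called, and Orm1 was -1.05. The counts behind Saa1, Saa2 and Orm2 in the low tumors, at most 52 in any vehicle library for Saa1 and Saa2, limit the precision of their differences.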

Other observations

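Further secreted or hepatocyte genes of the lists shared the single high tumor of Saa1 and Saa2, and were chosen after their values were seen. Hamp2, a paralog of the iron hormone hepcidin, had 0.516, 65.95 and 0 CPM in GSK3326595 tumors, against 1.43, 1.12 and 0.209 CPM in vehicle tumors, and Hamp, hepcidin itself, had 53.2, 284 and 20.02 CPM in GSK3326595 tumors, against 25.3, 35.5 and 46.6 CPM in vehicle tumors. Their log2 differences were 4.59 ± 2.29 (SE) for Hamp2 and 1.73 ± 0.90 (SE) for Hamp, with edgeR adjusted p of 0.585 and 0.601. Itih4, an inter-alpha-trypsin inhibitor chain, had 228, 1048 and 47.4 CPM in GSK3326595 tumors, against 274, 357 and 106 CPM in vehicle tumors. The hepatocyte marker Cyp2e1, an alcohol-metabolising cytochrome, had 8.800, 1909.7 and 125 CPM in GSK3326595 tumors, against 5.96, 4.05 and 212 CPM in vehicle tumors, so it was high in GSK3326595 replicate 2 and, less so, in replicate 3 of both groups.

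Of the other positive acute phase genes, Lrg1 and Fgl1 followed the pattern of Orm1 and Orm2, high in GSK3326595 replicate 2 and in vehicle replicates 1 and 2. They were chosen after their values were seen, and the list held other patterns. Fga had 3703, 1540.5 and 1192 CPM in GSK3326595 tumors, against 5011, 5870 and 1497 CPM in vehicle tumors. Lrg1, a leucine-rich glycoprotein of plasma, had 4.06, 49.7 and 2.92 CPM in GSK3326595 tumors, against 63.7, 109 and 5.49 CPM in vehicle tumors, and Fgl1, a fibrinogen-like protein of hepatocytes, had 11.5, 116 and 3.39 CPM in GSK3326595 tumors, against 109.7, 191 and 12.8 CPM in vehicle tumors. Their edgeR adjusted p were 0.748 for Lrg1 and 0.8297 for Fgl1. Of the markers of other cell types, 8 stellate cell and fibroblast genes summed to 461, 595 and 607 CPM in GSK3326595 tumors, against 101, 175 and 444 CPM in vehicle tumors, 8 endothelial genes to 192, 217 and 103 CPM in GSK3326595 tumors, against 85.8, 136 and 154 CPM in vehicle tumors, 8 biliary and progenitor genes to 27.2, 18.6 and 69.5 CPM in GSK3326595 tumors, against 13.9, 19.8 and 30.9 CPM in vehicle tumors, and 6 adipocyte genes, of which Lep was at 0 in all libraries, to 58.9, 30.01 and 26.1 CPM in GSK3326595 tumors, against 20.3, 38.3 and 17.5 CPM in vehicle tumors. Of 8 T and NK cell markers 5 were tested, all 5 with a positive log2 difference. For 4 of them every treated tumor was above every vehicle tumor, where 14.4% of all genes had no overlap in either direction. Cd2 had 2.51, 1.67 and 0.722 CPM in GSK3326595 tumors, against 0.191, 0.306 and 0.209 CPM in vehicle tumors, and Klrd1 had 1.84, 0.868 and 0.8297 CPM in GSK3326595 tumors, against 0.191, 0.1701 and 0.119 CPM in vehicle tumors. The vehicle levels of both were near the floor. Cd2, Klrd1, Nkg7 and Cd3g passed the filter on low counts through the treated group, where they were high. Their direction, lack of overlap and p-values are thus no test of a rise. No T and NK cell marker passed edgeR's adjusted test, with a smallest adjusted p of 0.455. At an unadjusted p under 0.05, 4 were higher, where 5.45% of all genes were. DESeq2, which called 1.69% of all genes, gave an adjusted p of 0.00469 for Cd2, 0.00437 for Klrd1, 0.0145 for Nkg7 and 0.04801 for Cd3g.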
